A study of Drosophila melanogaster with 3 samples.

Results

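The Penelope piRNA population of Drosophila melanogaster strain A1a was described from 970 distinct small RNA sequences with 1777 reads, out of 2670 distinct sequences listed for all 3 strains of the study. Its members were the sequences listed as matching Penelope in the ovary library of A1a, each taken a single time with its own read count even where it matched at 2 places. The study profiled small RNAs of 23 to 29 nt in strains in which Northern blots had detected Penelope piRNAs. Strain A1a was set against strain A2d (1800 sequences, 3870 reads) and strain A2h (474 sequences, 748 reads), each with 1 ovary library from flies 3 to 5 days old kept at 25 degrees. The labels give no genotype beyond the strain name and do not say where or in how many copies Penelope is inserted.

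piRNAs lead Piwi proteins to transcripts of transposons in the animal gonad, where they keep these elements silent. In the ping-pong cycle, a piRNA loaded in one Piwi protein directs the cut of a complementary transcript opposite its bases 10 and 11, and the cut end becomes the 5′ end of a new piRNA. The partners therefore overlap by 10 nt at their 5′ ends, and in Drosophila the primary partner tends to start with U while the secondary partner has A at base 10. piRNAs can also be cut one after the other along a transcript, so that the 3′ end of one is followed by the 5′ end of the next, which again tends to start with U. Penelope is a retroelement best known for being mobilised in dysgenic crosses of Drosophila virilis.

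The sequences that led the strongest 5′ ends of A1a are shown as listed, with T for U, 5′ to 3′, and with the 10 bases that a ping-pong partner would share in capitals. Positions count from 1 on the authors' Penelope sequence, and the strand is given before each. They are shown because the positions of their ends, and the bases 1 and 10 at the edges of the capitals, are what the results below are about.
sense Penelope:1128-1152: TACGAGATCAacggaacctagcctt
sense Penelope:567-592: TGTTTTAACAaacacggacctcgagc
sense Penelope:565-592: TTTGTTTTAAcaaacacggacctcgagc
antisense Penelope:491-515: CATCGGCAAAccgtcttcagggcac
antisense Penelope:491-519: TGCACATCGGcaaaccgtcttcagggcac
antisense Penelope:594-617: TATTTCAATAtttatttgttggct
antisense Penelope:471-498: CAGGGCACTAacaccaagatacaaaaaa

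The leading sequences of the sense-antisense pairs of A1a ranked 1, 2 and 4 by the product of their reads are shown the same way. Rank 3, at 608 and 617, is left out, and its antisense sequence is shown above. Its leading sequences have U at base 1 and A at base 10 on both strands. In each pair shown, the capitals of one strand are the reverse complement of the capitals of the other. The pair at 2425 and 2434 and the pair at 371 and 380 have A at base 10 of the sense sequence opposite U at base 1 of the antisense one, while the pair at 1856 and 1865 has neither base on either strand.
sense Penelope:2425-2448: CTTCAATTCAaaccacccaaagag
antisense Penelope:2409-2434: TGAATTGAAGttgagtattcgtccgg
sense Penelope:371-398: CTCAGTAACAatctccacgtcaaaaagc
antisense Penelope:357-380: TGTTACTGAGgttgtttgactgtt
sense Penelope:1856-1880: GCGGTAGATTttaaagacagagtct
antisense Penelope:1842-1865: AATCTACCGCgttcttgatgttgt

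Of the A1a reads, 762 were sense to Penelope and 1015 were antisense. Of its sequences, 723 were seen a single time, and the highest count was 42. Each strain had 1 library, so no test between strains was possible and none was made. Brackets after a share hold its exact (Clopper-Pearson) 95% binomial interval. These intervals cover counting error only, because PCR copies were not told apart by molecular identifiers. They also treat the reads of 1 site, which mostly share their bases, as independent. A site at 0 may hold up to 3 reads, which is 0.169% of all A1a reads. Of 1 strand, 3 reads are 0.394% of the sense and 0.296% of the antisense reads. The depth of the library is taken as its listed reads, since no total of all small RNAs was used. To compare libraries at the same depth, reads of the deeper one were drawn without replacement on each strand down to the totals of the other, in 200 draws, and the brackets after such a value hold the central 95% of the draws.

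The listed matches ran from position 3 to 3399 of Penelope, with direct repeats at 3 to 618 and 2784 to 3399. The longest reading frame from ATG in the element rebuilt from the reads ran from 617 to 3190, so it began at the end of the left repeat. No read covered 46 positions of that frame, where a stop codon would not have been seen. Of the A1a reads, 636 (35.8%) matched in both repeats and could have come from either. Reads lying wholly in the right repeat were placed on the left one, and a site here means the strand and position of an end. Reads lying only partly in the right repeat kept their place, as at antisense site 2788. The repeat held 486 antisense reads of A1a, or 47.9% (44.8 to 51.0%). Set on a single copy of 616 positions, these came to 78.9 reads per 100 positions, but the element holds 2 copies. The 3 nearly equal stretches between the repeats held 11.9, 27.7 and 12.5% of the antisense reads, in order along the element. Present a single time, they had 16.8, 39.0 and 17.6 antisense reads per 100 positions. Sense reads were spread more evenly, with 32.5% in the repeat and 20.5, 18.6 and 28.3% in those stretches.

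Sense 5′ ends of A1a piled up at few positions. The 762 sense reads began at 246 sites, the 10 strongest sites held 32.4% (29.1 to 35.9%) of the reads, and 134 sites had a single read. The strongest site was at 1128 in the body, where all 60 reads started with U and had A at base 10. Next came a nested group in the repeat, with 32 reads starting at 565, 20 at 566 and 46 at 567. All reads at these 3 sites began with U, and those at 565 and 567, but not 566, had A at base 10. Sites 2397 and 2398, with 17 reads each, had neither base. None of these 6 strongest sense sites had an antisense read overlapping by 10 nt.

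Antisense 5′ ends were as concentrated. The 1015 antisense reads began at 335 sites, the 10 strongest sites held 34.8% (31.8 to 37.8%) and 205 sites had a single read. The strongest sites lay 4 nt apart in the repeat and differed in their bases. All 79 reads at 515 had A at base 10 and none began with U, whereas all 74 reads at 519 began with U and none had A at base 10. Site 617, at the end of the repeat, had 43 reads, of which 42 began with U and all had A at base 10. Site 498 had 23 reads, all with A at base 10 and none with U at base 1, and site 1265 had 21 reads, all with U. Of these antisense sites, 617 and 498 had a 10 nt sense partner, with 2 reads each, and 515, 519 and 1265 had none.

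**Figure D1:**
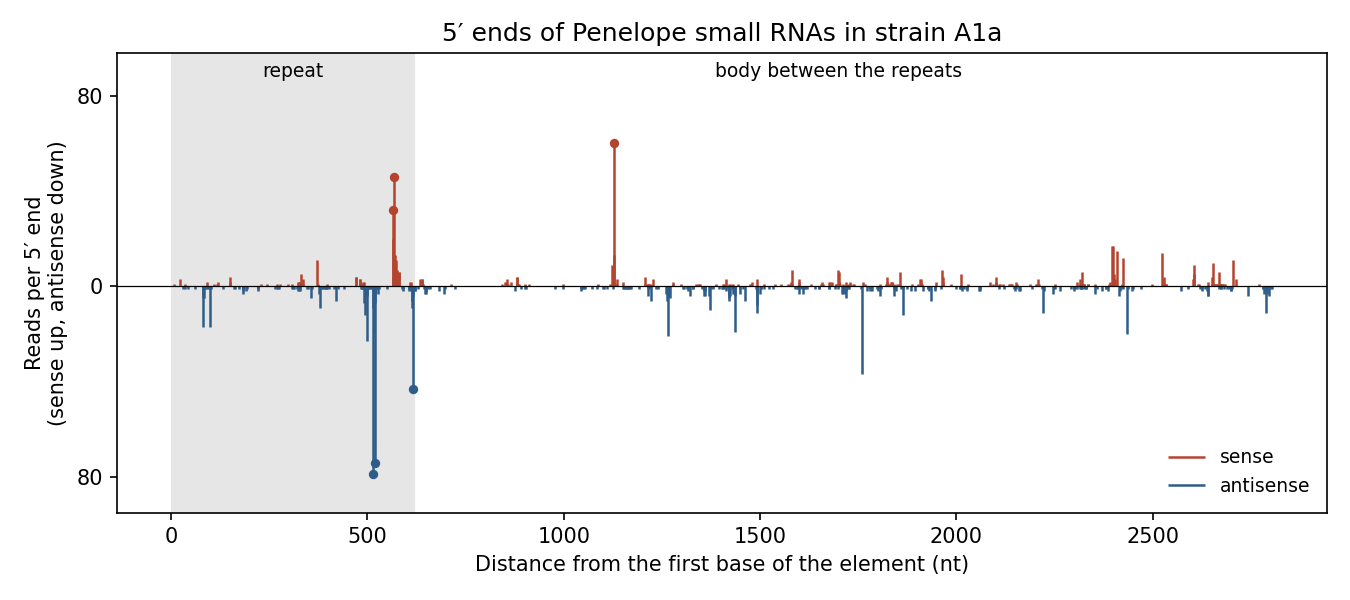
Reads per 5′ end of A1a small RNAs (y axis, reads, sense up and antisense down) against the distance from the start of Penelope (x axis, nt). Reads lying wholly in the right repeat are placed on the left one (grey). Dots mark the 3 strongest sites of each strand: the antisense sites 515 and 519 with 79 and 74 reads stand in the repeat beside the sense sites 565 and 567, and sense site 1128 with 60 reads stands in the body.

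Many of the strongest sites shared their 3′ end. The sense 3′ end at 592 held 85 reads, or 11.2% (9.01 to 13.6%) of sense reads, of which 42 came from the 5′ end at 567, 20 from 565 and 14 from 566. The antisense 3′ end at 491 held 98 reads, or 9.66% (7.91 to 11.6%) of antisense reads, of which 45 came from 515, 33 from 519 and 12 from 517. Different 5′ ends thus met at 1 position on each strand. From the strongest sense site, 1128, 32 reads ended at 1152, 24 at 1151 and 4 at 1150, and the ends 1152 and 1151, which neighbouring 5′ ends shared, held 40 and 37 reads in all. The antisense 3′ end at 490 held 38 reads, of which 24 came from 515, and that at 493 held 33, of which 26 came from 519. The sense 3′ end at 2422 held 21 reads, 10 each from 2397 and 2398, and that at 2678 held 15, of which 10 came from 2654. The antisense 3′ end at 594 belonged almost wholly to a single 5′ end, with 22 of 23 reads from 617. Over the strand, the 10 strongest 3′ ends held 33.5% (30.1 to 36.9%) of sense reads and 30.2% (27.4 to 33.2%) of antisense reads. At antisense sites with 10 or more reads, 66.0% (61.1 to 70.7%) of the reads of a 3′ end shared its commonest 5′ end, against 57.0% (52.2 to 61.7%) of the reads of a 5′ end that shared its commonest 3′ end. For sense sites these shares were 58.9% (52.7 to 64.9%) and 60.6% (54.9 to 66.0%).

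Sense and antisense reads of A1a overlapped by 10 nt more often than by any other length from 1 to 20 nt. Weighted by the product of the counts, 747 read pairs overlapped by 10 nt, against a mean of 179.8 and a highest value of 328, at 19 nt, over the other overlaps. The ratio of the 10 nt value to that mean was 4.15. Distinct sequences gave 203 pairs at 10 nt, against 26 to 141 at the other overlaps. The number of site pairs was raised less: 45 sense sites had an antisense site at 10 nt, while the other overlaps had 17 to 51 with a mean of 35.2, a ratio of 1.28. It was 33 at 9 nt and 35 at 11 nt, but 45 at 16, 18 and 19 nt, 47 at 20 nt and 51 at 17 nt. Of the 19 other overlaps, 3 thus had as many site pairs as 10 nt and 2 had more. A2d thinned to the A1a totals had 565.8 (446.9 to 717.1) read pairs at 10 nt and a ratio of 3.52 (2.79 to 4.36). The ratio of A1a lay inside the range of those draws, while its number of 10 nt pairs lay just above it.

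**Figure D2:**
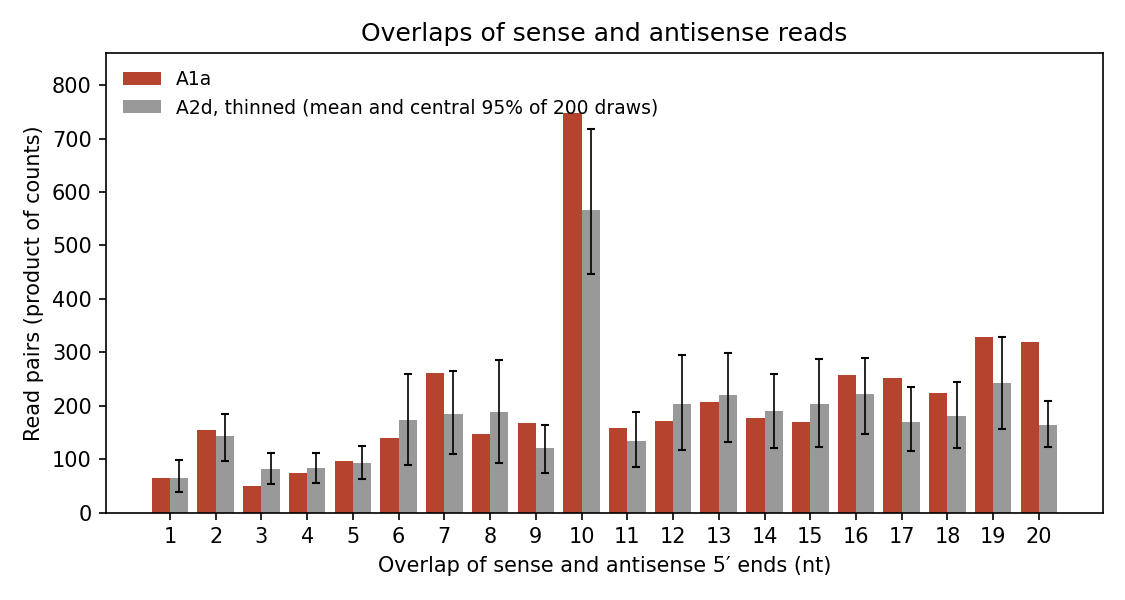
Read pairs (y axis, product of counts) by the overlap of sense and antisense 5′ ends (x axis, nt) in A1a and in A2d thinned to the A1a reads per strand, with bars for the mean and lines for the central 95% of 200 draws. A1a has 747 pairs at 10 nt and at most 328 at any other overlap.

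A few site pairs supplied most of the 10 nt signal. The pair at 2425 and 2434, with 12 sense and 20 antisense reads, gave 240 read pairs, or 32.1% of all. All 12 sense reads had A at base 10 and all 20 antisense reads began with U. Without this pair, 507 read pairs were left and the ratio was 2.85. The pair at 371 and 380, in the repeat, gave 99 read pairs from 11 sense reads, all with A at base 10, and 9 antisense reads, all with U at base 1. At 608 and 617, 2 sense reads met 43 antisense reads, which gave 86 read pairs. At 1856 and 1865, 6 sense and 12 antisense reads gave 72 read pairs, with neither U at base 1 nor A at base 10 on either strand. The pairs at 489 and 498, 91 and 100, 481 and 490, and 2408 and 2417 followed with 46, 34, 21 and 15 read pairs, which brought the share of these 8 to 82.1%. Their reads were unequal: 2 sense against 23 antisense reads at 489 and 498, 2 against 17 at 91 and 100, and 15 sense reads against 1 antisense read at 2408 and 2417.

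Most sites of A1a, strong ones included, had no 10 nt partner. Reads with a 10 nt partner made up 17.8% of sense and 19.0% of antisense reads. Of the 16 sense sites with 10 or more reads, 3 (18.8%) had a partner, close to the 18.3% of all sense sites. Of the 17 such antisense sites, 5 (29.4%) did, against 13.4% of all antisense sites. The unpaired strong sites held 36.0% of the sense reads and 31.7% of the antisense reads. By region, the repeat held 11 of the 45 site pairs and 41.5% of the read pairs, and the last stretch before the right repeat held 11 site pairs and 36.9% of the read pairs. The stretch after the left repeat, which holds sense site 1128, had 8 site pairs but 3.75% of the read pairs.

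Read length in A1a depended on the site more than on the strand. Sense reads averaged 25.9 ± 1.56 nt (SD over 762 reads) and antisense reads 25.8 ± 1.60 nt (SD over 1015 reads). Among sites with 10 or more reads, the site accounted for 52.0% of the variance in length on the sense strand and 61.9% on the antisense strand. Sense site means ran from 24.3 nt at 2425 to 28.3 nt at 2524, and antisense ones from 23.0 nt at 2788, which starts just inside the right repeat, to 28.1 nt at 519. Reads at 515 averaged 25.4 ± 0.82 nt (SD over 79 reads), although they shared the 3′ end at 491 with the longer reads at 519. At 567, 42 of the 46 reads were 26 nt long and ended at 592, while 20 of the 32 reads at 565 were 28 nt and ended at the same base. Site 1128 had 25 nt reads most often and averaged 24.5 ± 0.62 nt (SD over 60 reads).

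**Figure D3:**
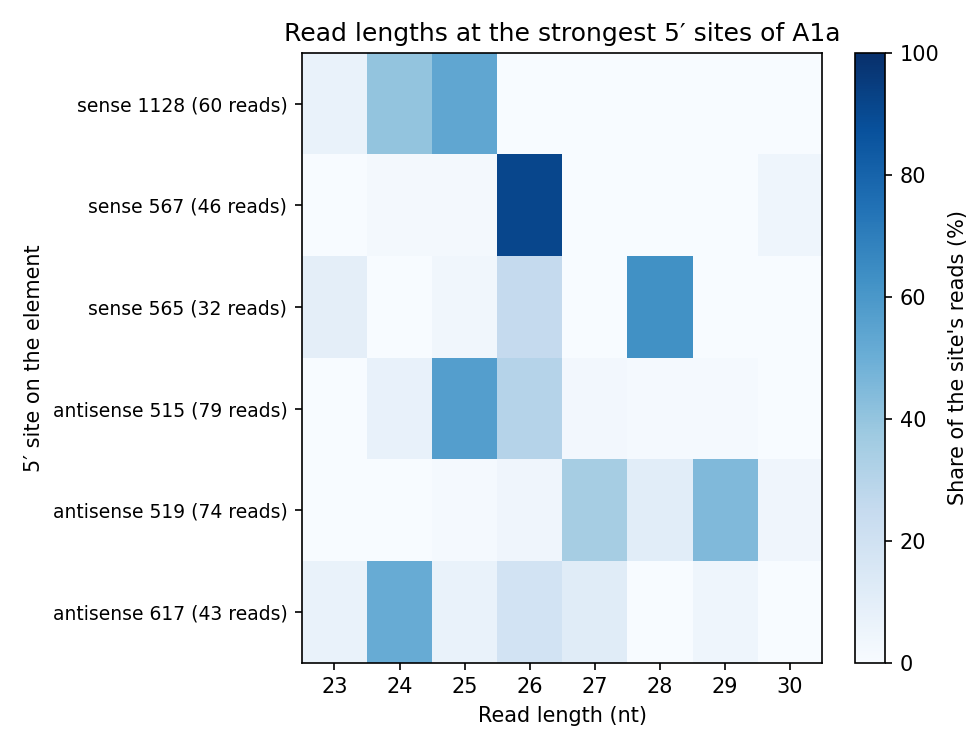
Share of reads of each length (x axis, nt; colour scale, % of the reads of the site) at the 3 strongest 5′ sites of each strand in A1a (rows). Sites that share a 3′ end differ in length: antisense 515 centres on 25 nt while antisense 519 reaches 29 nt.

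Paired reads of A1a were more often short than unpaired ones, and this came largely from a few sites. Lengths of 23 and 24 nt made up 37.8% (30.96 to 45.1%) of antisense reads with a 10 nt partner, against 19.2% (16.6 to 22.1%) of those without. Site 617 had 25 of its 43 reads at these lengths and site 100 had 15 of 17, together 40 of the 73 short paired reads. Both sites together held 60 of all 193 paired antisense reads, and each had 2 sense partner reads. For sense reads the shares were 27.9% (20.6 to 36.3%) with a partner and 16.5% (13.6 to 19.6%) without. Sites 2408 and 2425 had 9 of 15 and 9 of 12 reads at these lengths, together 18 of the 38 short paired reads. They held 27 of all 136 paired sense reads. The sites named here are the paired ones with 10 or more reads that were mostly 23 and 24 nt long.

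The bases of A1a sense reads changed with the strength of the site. U at base 1 was present in 30.6% (22.9 to 39.1%) of sense reads at sites of 1 read, 55.7% (50.0 to 61.3%) at sites of 2 to 9 reads and 78.2% (73.2 to 82.7%) at sites of 10 or more, while T makes up 21.6% of the plus strand of the element. A at base 10 was found in 38.1% (29.8 to 46.8%), 50.9% (45.3 to 56.6%) and 71.8% (66.5 to 76.7%) of the reads in the same classes, against 42.9% A in the element. Counted by site, with every site taken a single time, A at base 10 was at 106 of 246 sense sites, or 43.1% (36.8 to 49.5%), so over sites it was no more frequent than A in the element. U at base 1 was at 105 of 246 sense sites, or 42.7% (36.4 to 49.1%). Of the 16 sense sites with 10 or more reads, 11 began with U, 10 had A at base 10, 7 had both and 2 had neither. By site, U at base 1 was at 68.8% (41.3 to 89.0%) of these, above the 22.9 to 39.1% of sites of 1 read. A at base 10 was at 62.5% (35.4 to 84.8%) of them, which overlaps the 29.8 to 46.8% of sites of 1 read.

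**Figure D4:**
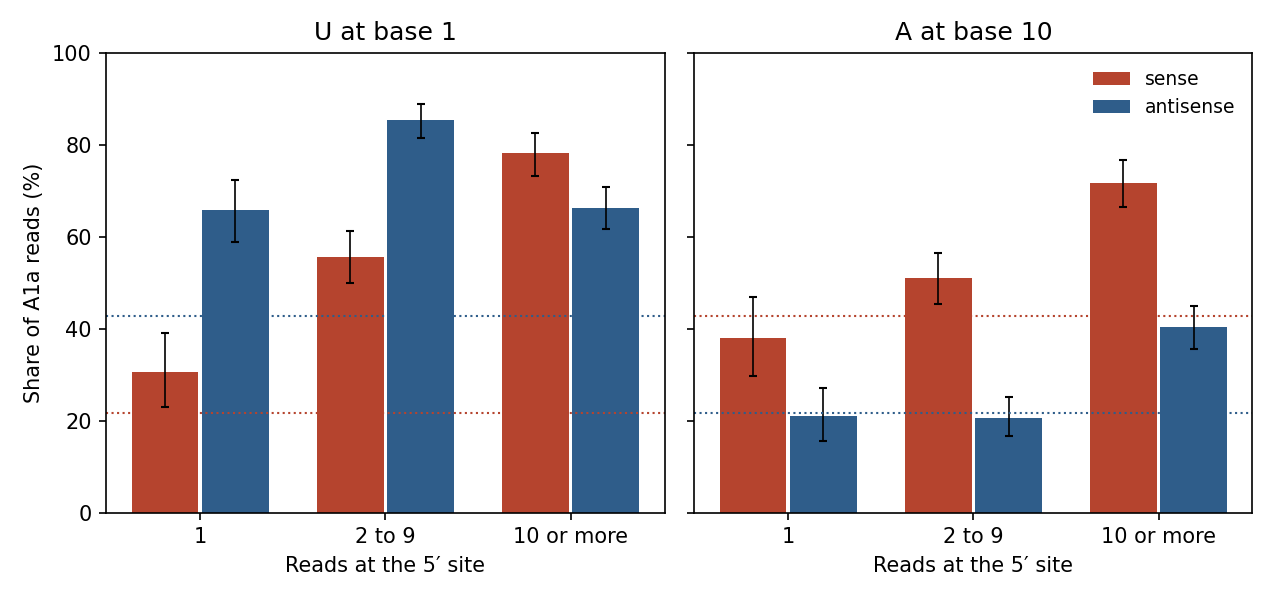
Share of A1a reads (y axis, %, with 95% intervals) with U at base 1 (left) and with A at base 10 (right), by the number of reads at their 5′ site (x axis); dotted lines give the share of that base in the element on the same strand. Sense reads climb from 30.6 to 78.2% U at base 1, while antisense reads stand at 66.4% at the strongest sites. The intervals are over reads, and the class of 10 or more reads holds 16 sense and 17 antisense sites.

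Antisense reads did not follow that order. U at base 1 was in 65.9% (58.9 to 72.3%), 85.5% (81.5 to 88.9%) and 66.4% (61.7 to 70.8%) of the reads at sites of 1, of 2 to 9 and of 10 or more reads, against 42.9% T in the minus strand of the element. A at base 10 was in 21.0, 20.6 and 40.3% of the reads in the same classes, against 21.6% A in that strand. The high A at base 10 lay in the repeat, where it was 42.2% (37.7 to 46.7%), against 15.7, 21.0 and 10.2% in the stretches of the body. Sites 515, 617, 498 and 517 supplied 79, 43, 23 and 20 of the 205 such reads. Counted by site, A at base 10 was at 22.5% (14.9 to 31.9%) of the antisense sites in the repeat and 20.6% (16.4 to 25.3%) over the strand. By site, U at base 1 was at 12 of the 17 antisense sites with 10 or more reads, or 70.6% (44.0 to 89.7%). This interval overlaps the 76.0 to 90.3% of sites of 2 to 9 reads. Over reads, U at base 1 was highest in the last stretch before the right repeat, at 92.1% (86.0 to 96.2%).

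Paired reads of A1a had A at base 10 more often than unpaired ones on both strands. The choice of paired reads itself favours this contrast. A at base 10 was in 83.8% (76.5 to 89.6%) of sense reads with a 10 nt partner, against 51.4% (47.4 to 55.4%) without, and in 36 of the 45 paired sense sites. U at base 1 was in 42.6% (34.2 to 51.4%) of paired sense reads and 64.4% (60.5 to 68.1%) of unpaired ones. On the antisense strand, U at base 1 was in 76.7% (70.1 to 82.5%) of paired and 72.5% (69.3 to 75.5%) of unpaired reads, with overlapping intervals. A at base 10 was in 47.2% (39.9 to 54.4%) of paired antisense reads against 24.9% (22.0 to 28.04%) of unpaired ones, and at 17 of the 45 paired antisense sites. Of the 91 paired antisense reads with this base, 43 were at 617 and 23 at 498, sites with 2 sense partner reads each. In an exact pair, A at base 10 of one strand and U at base 1 of the other are the same base pair, so these shares are not independent of each other. The unpaired strong sites included sites with both bases, such as 1128 with U at base 1 and A at base 10 in all 60 reads.

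A 3′ end was followed directly by a 5′ end more often than at any distance from 2 to 20 nt on both strands of A1a. Summing the smaller of both end counts over positions, the sum for direct succession was 47 on the sense strand, 1.98 times the mean of 23.7 over the other distances, and 88 on the antisense strand, 1.58 times the mean of 55.6. With the smaller count used in the same way, the 10 nt overlap stood at 2.66 times the mean of the other overlaps. The strongest antisense 3′ end, at 491 with 98 reads, was followed at 490 by a 5′ site of 7 reads. The base after the 3′ end was T in 34.2% (30.8 to 37.7%) of sense reads, against 12.7 to 24.5% at the next positions, from the second to position 12. On the antisense strand it was T in 56.9% (53.8 to 60.0%), against 28.9 to 45.6% at those positions. A2d thinned to the same totals had a sum of 44.8 (35 to 56) for direct succession on the sense strand and of 101.5 (87 to 117) on the antisense strand, ranges that hold the A1a values. The antisense profiles differed: A1a had its highest sum at 1 nt and 47 at 9 nt, while thinned A2d had its highest, 125.1 (111.0 to 141), at 9 nt. A2h, with 703 antisense reads, also had its highest sum, 82, at 1 nt. In the full A2d list, antisense 3′ ends at 622, 623 and 624 had 44, 75 and 56 reads. They lie 9 nt from the 5′ ends at 613, 614 and 615, with 89, 91 and 125 reads. These sites were lower in A1a, and the profile without them was not tested.

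The 5′ sites with higher shares in A1a than in A2d lay in the repeat. Every A1a site with 10 or more reads, 16 sense and 17 antisense, was also listed in A2d, so the difference was in the reads at shared sites. Among sites with 10 or more reads in A1a or A2d, the intervals of the shares were apart and higher in A1a at 2 of 28 sense sites (7.14%) and at 4 of 46 antisense sites (8.70%), all in the repeat. They are given as a description, since the cut on reads favours sites that differ. Site 515 had 79 reads in A1a, 7.78% of its antisense reads (6.21 to 9.61%), and 74 reads in A2d, 3.15% (2.48 to 3.94%). Site 519 had 74 reads in A1a (7.29%, 5.77 to 9.07%) and 52 reads in A2d (2.22%, 1.66 to 2.90%). Sites 498 and 493 had 23 and 12 reads in A1a, with 4 reads each in the larger A2d list. On the sense strand, 567 had 46 reads, or 6.04% (4.45 to 7.97%), in A1a and 40 reads, or 2.63% (1.88 to 3.56%), in A2d, and 371 had 11 reads in A1a but 2 in A2d.

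The antisense sites that were lower in A1a lay mainly where the left repeat ends and the reading frame begins. They were 8 of 46 (17.4%), of which 7 lay between 613 and 650. Site 615 had 4 reads in A1a against 125 reads in A2d, and site 650 had 3 reads in A1a against 83 reads in A2d. All antisense reads starting from 613 to 650 made up 7.68% (6.12 to 9.50%) of the antisense strand in A1a, while A2d had 30.3% (28.5 to 32.2%) there and A2h had 5.55% (3.97 to 7.51%). These bounds were set by the sites found lower in A1a. Of the 78 A1a reads there, 43 were at 617, where A2h had none. Without 617 the share was 3.45% (2.41 to 4.76%) in A1a, 27.3% (25.5 to 29.1%) in A2d and unchanged in A2h. With all reads from 613 to 650 left out of both totals, site 515 still had 8.43% (6.73 to 10.4%) in A1a against 4.53% (3.57 to 5.65%) in A2d, and site 519 had 7.90% (6.25 to 9.81%) in A1a against 3.18% (2.38 to 4.15%) in A2d. The repeat as a whole held 47.9% (44.8 to 51.0%) in A1a against 44.5% (42.5 to 46.5%) in A2d, with overlapping intervals. The stretch after it held 11.9% (9.99 to 14.1%) of antisense reads in A1a against 23.9% (22.1 to 25.6%) in A2d. The middle stretch of the body held 27.7% (24.95 to 30.5%) in A1a against 20.2% (18.5 to 21.8%) in A2d. With the reads from 613 to 650 left out, it held 281 of 937 antisense reads in A1a and 473 of 1635 in A2d. Those 2 shares are close.

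**Figure D5:**
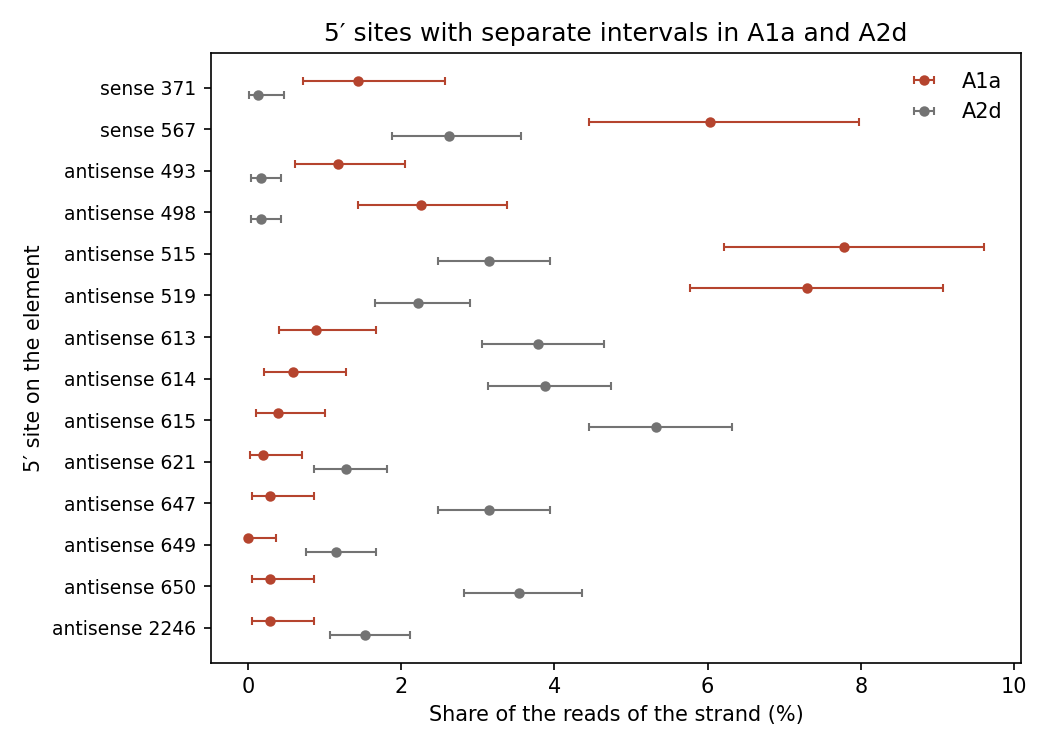
Share of the reads of the strand (x axis, %, with 95% intervals) at the 14 5′ sites whose intervals in A1a and A2d were apart (rows, sites on the element in nt). The upper 6 sites are higher in A1a and the lower 8, of which 7 lie from 613 to 650, are lower in A1a.

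The 3′ ends that were higher in A1a lay in the repeat or in the body. Sense 3′ ends were apart and higher in A1a at 2 of 29 sites (6.90%), and antisense ones at 5 of 44 (11.4%), while 9 of 44 antisense ends (20.5%) were lower in A1a. The sense end at 592 had 11.2% (9.01 to 13.6%) in A1a against 4.99% (3.95 to 6.21%) in A2d. The antisense end at 491 had 9.66% (7.91 to 11.6%) in A1a against 3.49% (2.79 to 4.32%) in A2d. The antisense end at 589, by contrast, had 20 reads in A1a, or 1.97% (1.21 to 3.03%), against 12.1% (10.8 to 13.5%) in A2d and 1.85% (0.988 to 3.14%) in A2h. Outside the repeat, the ends higher in A1a were the sense end at 2448, with 10 reads in A1a and 3 in A2d, and 1 of the 5 antisense ends. Ends 592 and 491 are those shared by the sense 5′ ends at 565 to 567 and the antisense 5′ ends at 515 to 519.

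The 10 nt pairs of A1a were partly those of A2d. Of its 45 site pairs, 28 were also in the full A2d list, which had 100, and they held 90.2% of the A1a read pairs. That overlap was 62.2% of the A1a site pairs. A2d thinned to the A1a totals had 48.5 (39.98 to 57) site pairs, of which 17.5 (13 to 21.03) were among those of A1a. The pair at 371 and 380 differed most among the 3 strongest: its 99 read pairs in A1a compared with 1.73 (0 to 6) in thinned A2d. The strongest pair, at 2425 and 2434, gave 240 read pairs in A1a and 122.3 (57.0 to 207.1) in thinned A2d. The pair at 91 and 100 was absent from the A2d list, where the antisense site had 47 reads and the sense site none.

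The share of 5′ ends at the 10 strongest sites was close in A1a and A2d at the same depth. The 5 strongest antisense sites stood further apart, with 25.2% in A1a and 20.2% (18.4 to 21.6%) in thinned A2d. The 5 strongest sense sites held 22.97% in A1a and 20.6% (19.0 to 22.6%) in thinned A2d. The 10 strongest sense sites held 32.4% in A1a and 30.3% (28.5 to 32.3%) in thinned A2d, the 10 strongest antisense sites held 34.8% in A1a and 32.6% (30.5 to 34.5%) in thinned A2d, and both A1a values lay just above the range of the draws. Without the most abundant sequence of each strand, the values were 29.5% in A1a and 27.3% (25.2 to 29.8%) in thinned A2d for sense, and 31.96% in A1a and 30.3% (28.1 to 32.5%) in thinned A2d for antisense, so A1a was inside both ranges. With exact matches the sense value was 32.0% in A1a and 32.3% (29.3 to 35.05%) in thinned A2d. The 10 strongest sense 3′ ends held 33.5% in A1a, with an interval of 30.1 to 36.9%, and 29.5% (27.4 to 31.5%) in thinned A2d. The strongest sense 3′ end alone held 11.2% in A1a and 5.93% (4.99 to 6.96%) in thinned A2d. The 10 strongest antisense 3′ ends held 30.2% in A1a and 33.3% (31.4 to 35.3%) in thinned A2d. This antisense value of A1a lay below the range of the draws, but its own interval, 27.4 to 33.2%, overlaps that range. The 246 sense sites of A1a were fewer than the 288.3 (274 to 303) of thinned A2d, while the 335 antisense sites of A1a equalled the 334.9 (316 to 355) of thinned A2d. Against A2h the depth allows a comparison on the antisense strand. A1a thinned to the A2h totals had 34.9% (33.3 to 36.6%) of antisense reads at its 10 strongest sites, and A2h had 23.6% (20.5 to 26.9%). A2h had 1 read at 515, none at 519 and none at 617. A1a thinned to the A2h totals, with 45 sense reads, gave 29.8 (5 to 72.1) read pairs at 10 nt, and A2h gave 2.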

How the data were processed

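Per the labels' protocols, ovarian small RNAs were cut from a gel, ligated to adapters, amplified by PCR and multiplexed. The deposited tables list, per the file headers, the unnormalised read counts of sequences matched to Penelope by the authors, with strand, start, end and mismatches (at most 2). Aligner, trimming and the Penelope reference were not given in the sources used. The A1a table had 3 lines that were empty and not analysed here. File coordinates were half-open and are printed from 1.

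Each sequence was counted a single time, and 77.4% of A1a reads matched exactly. The repeat offset was read from sequences with 2 places. T580A (reference base, position, read base) was present in 169 of 169 A1a reads there, so the sequences at 565 to 567 carry a mismatch. Overlaps used the listed places. The named sites were taken from the 6 strongest 5′ ends and 5 strongest 3′ ends per strand and the 8 strongest site pairs, and the comparisons with A2d added sites with separate intervals. One item that the rule names is not reported here. The members and rules were chosen with earlier results of these data known. Scripts used Python 3.11.15, NumPy 2.4.6, SciPy 1.17.1 and Matplotlib 3.10.9 and were tested on simulated data. Alternatives were other count weights, exact matches, sequences of 1 place, other site numbers and overlap windows. Recounts without the antisense ends at 613 to 650, and without 617 among these, were added after seeing the data.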

Additional observations from a re-analysis of the deposited data

How the results depend on the processing

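Of 100 values recomputed under another setting, 55 stayed within the interval of the reported value (pair ratios: within 1.5 times) and 45 moved beyond it, and all 11 pair ratios stayed above 1. Some outcomes were fixed in advance, so this tally does not measure how firm the results are. By definition, 5 sites hold less and 20 sites hold more than 10. The most abundant sequence of each strand had no 10 nt partner, so leaving it out could not change the 747 read pairs. In the order sense 5′, antisense 5′, sense 3′ and antisense 3′, the strongest sites of A1a held 15.3, 15.6, 14.6 and 13.04% with each sequence counted as 1 read, 48.6, 51.8, 50.8 and 46.2% with sequences of 2 or more reads, 22.97, 25.2, 25.98 and 21.3% for 5 sites and 45.1, 45.7, 44.1 and 41.5% for 20 sites. Sequences of 1 place gave 29.1% (antisense 5′) and 22.99% (antisense 3′), exact matches 29.9% (sense 3′), and leaving out the most abundant sequence 29.8% (sense 3′) and 27.2% (antisense 3′); it gave 27.3% (sense) and 30.3% (antisense) for the 5′ ends of thinned A2d. The pair ratio was 2.31 with each sequence as 1 read, 12.5 with 2 or more reads, 2.66 with the smaller count and 1.97 for overlaps of 9 to 11 nt. Sense U at base 1 was 50.7, 69.9, 53.9 and 55.5% with 1 read each, 2 or more reads, exact matches and 1 place, and sense A at base 10 was 49.5, 63.96 and 53.3% in the first 3 of these. Antisense U at base 1 was 77.8% for 1 place and 76.5% without the top sequence, and antisense A at base 10 was 24.6, 33.1, 19.9 and 26.1% with 1 read each, 2 or more reads, 1 place and without the top sequence. Mean length was 25.8 nt (sense) for exact matches or 1 place, and 25.7 and 25.9 nt (antisense) with 1 read each and 2 or more reads. No paired analysis was possible because each strain had 1 library. Depth limits A2h most: 3 reads are 6.67% of its sense reads.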
